A study of Mus musculus with 9 samples.

Results

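The complement components and receptors were 31 genes, of 18272 in the table, that encode complement proteins, their regulators and the receptors that read them. They were taken from the table by their symbols, and 28 of them reached 10 counts in 3 or more of the 9 libraries and were tested. The 3 others, *C6*, *C7* and *Cfi*, are described by their counts only. RNA-seq of the tibia was done in female C57BL/6J mice bought at 10 to 11 weeks of age, with 1 library from each of 3 mice in 3 groups. T1D mice received streptozotocin (STZ), a toxin of the pancreatic beta cells, and then saline. NGT mice had normal glucose tolerance and received vehicle in place of STZ. Lira mice received the same STZ and then 0.6 mg/kg/day of liraglutide, a drug that activates the receptor of the gut hormone GLP-1. Treatment began 2 weeks after STZ and lasted 8 weeks, although the label of Lira mouse 3 gives 9 weeks. STZ diabetes models insulin loss by beta cell toxicity and not autoimmunity, and effects of STZ on other tissues cannot be told apart from those of diabetes.

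Complement is a cascade of plasma proteins that marks particles for removal. The classical pathway starts when C1q, carrying the proteases C1r and C1s, binds a surface, and the lectin pathway starts with collectins and ficolins. Both cleave C4 and C2 to form a convertase that cleaves C3, and the alternative pathway amplifies this step through factor B and properdin. The fragments C3a and C5a call in cells through G protein-coupled receptors, deposited C3 fragments are read by integrins and scavenger receptors on phagocytes, and the terminal components form a membrane pore. Most plasma complement is made by the liver, but C1q is made mainly by macrophages and dendritic cells, and stromal cells make C1r, C1s, C3 and C1 inhibitor. In bone, osteoclast precursors are of the macrophage lineage.

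Libraries held 13086373 to 16528394 counts. Levels are given as CPM, counts scaled to a common library total, and a gene without a count may have had up to 3 counts, or 0.163 to 0.237 CPM by library. There were 4 libraries that stood apart. T1D mouse 1 had the highest level of the 9 libraries for 21 of the 28 tested complement genes, against 20.7% of all 13960 tested genes, and exceeded 2 times the next library for 13 of the 28, against 3.41% of all. Lira mouse 3 was the highest for 19.9% of all tested genes and exceeded 2 times the next library for 3.16% of them, but was the highest for 3 of the 28 members and over 2 times the next for none. It held the highest sums of 10 neutrophil markers, at 5494 CPM, and of 6 B cell markers, at 174 CPM. NGT mouse 2 and Lira mouse 2 held the fewest bone cell transcripts, with 7.97 and 18.5 CPM over 8 osteoclast markers against 48.8 to 353 CPM in the other 7 libraries, and 4 of 9 osteoblast and osteocyte markers were at 0 in NGT mouse 2. Although the bones had been cleaned of muscle, 10 skeletal muscle genes summed to between 83060.2 (T1D mouse 1) and 221028 CPM (NGT mouse 3). Counts of members are given also without single mice of the groups compared, and fold changes of the main members without T1D mouse 1. In whole tibia, more cells of a type and more RNA per cell cannot be told apart.

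Complement transcripts took 0.376% of the counts of T1D mouse 1 and 0.04996% to 0.110% of the counts of the other 8 libraries. Per transcript length (FPKM, the mean over the 9 libraries), *Serping1* was the most abundant member at 73.7, followed by *C3* at 49.99, *Clu* at 45.7 and the 3 C1q chains at 35.2 to 42.2. At the other end were *Cfi*, *C7*, *C6*, *C5ar2*, *Itgax* and *Vsig4*, each under 1 FPKM. These means carry T1D mouse 1. Among NGT mice the order was different, with *Clu* (44.02 FPKM), *Serping1* (43.1) and *Cd55* (30.6) ahead of *C3* (26.9) and *C1qa* (11.8), and the SD of these 5 means over the 3 mice ran from 4.68 (*Cd55*) to 20.8 FPKM (*C3*), so that *Clu* and *Serping1* were not separated.

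**Figure D1:**
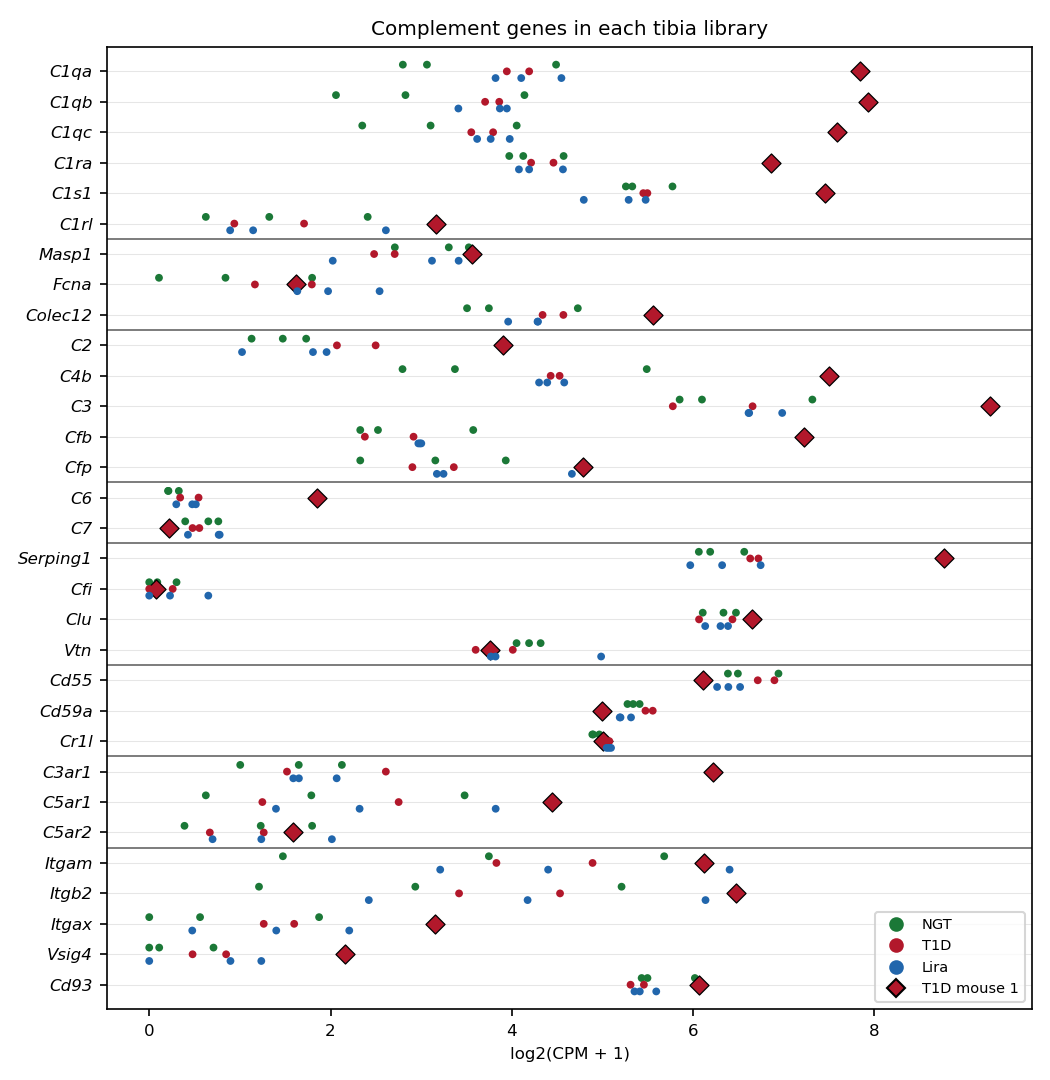
Level of each of the 31 complement genes in the 9 libraries, as log2(CPM + 1), with 1 point per mouse coloured by group and lines between roles. T1D mouse 1, the outlined diamond, lies to the right of every other library for the C1q chains, the convertase components, C3ar1 and Serping1, while the membrane regulators stay close together.

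The first comparison asked how untreated diabetes changed the tibia. On average the C1q chains, *C2*, *Cfb*, *C3ar1*, *C1ra* and *Serping1* were higher in T1D than in NGT mice, by 2.75-fold (*Serping1*) to 12.3-fold (*C3ar1*), while the log2 fold change of the membrane regulators was -0.02 ± 0.24 (SE) for *Cd55*, 0.02 ± 0.17 for *Cd59a* and 0.12 ± 0.12 for *Cr1l*. These 8 of the 28 tested members had an unadjusted p under 0.05 in edgeR's quasi-likelihood test, all 8 higher in T1D mice. The same was true of 3.95% of all 13960 genes, 2.36% in the higher direction. None passed the thresholds of the study (adjusted p under 0.05 and a fold change over 2). In edgeR no gene of the table passed them (0%), and the lowest Benjamini-Hochberg adjusted p of a member was 0.977. DESeq2 called 0 members as well, with an unadjusted p under 0.05 for 4 (5.01% of all genes). The median log2 fold change was 1.04 over the 28 members and 0.02 over all genes tested, and 15 members were over 2 times higher on average, against 5.27% of all genes.

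The size of this difference rested on T1D mouse 1. Without it, the median log2 fold change was 0.11 and 2 members were over 2 times higher on average (the share of all genes was not counted). In that edgeR fit 0 of the 28 members had an unadjusted p under 0.05 (2.99% of all genes), and *C2* had the lowest p of the members (0.0564). The count was 1 member, *C2*, without NGT mouse 2 (1.61% of all genes) or without NGT mouse 3 (1.82%), with medians of 0.76 and 0.85. It was 12 without NGT mouse 1 (7.31%, median 1.95) or without T1D mouse 2 (5.2%, median 1.45) and 10 without T1D mouse 3 (4.98%, median 1.33). The fit without T1D mouse 1 keeps NGT mouse 1 without the T1D mouse of its number. Within numbers, 17 of the 28 members were higher in the T1D mouse of all 3 (19.2% of all genes).

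The second comparison asked what liraglutide did in diabetic mice. Here 7 of the 28 members had an unadjusted p under 0.05, all lower in Lira than in T1D mice (*C1qb*, *C1qc*, *C1s1*, *C2*, *Cfb*, *Serping1* and *C3ar1*), against 3.33% of all genes and 1.78% in the lower direction. None passed the thresholds of the study in edgeR (0% of all genes), and the lowest adjusted p of a member was 0.978. The median log2 fold change was -0.70 over the members and 0.04 over all genes, and 12 members were over 2 times lower on average, against 4.41% of all genes. The 3 T1D mice are the same animals in both comparisons, so a high T1D mouse 1 enters both with opposite signs. Without it, the median was 0.12 and 0 members were over 2 times lower on average (the share of all genes was not counted). In that edgeR fit 0 members had an unadjusted p under 0.05 (2.36% of all genes). Without Lira mouse 3 the count was 0 as well (5.3%), but the median moved the other way, to -1.20. The count was 1 without Lira mouse 1 (*C2*, 1.86%, median -0.58), 2 without NGT mouse 3 (*C2* and *C3ar1*, 2.51%, median -0.70) and 3 without Lira mouse 2 (3.13%, median -0.44). It was 10 without T1D mouse 2 (4.04%, median -1.08) or without T1D mouse 3 (5.06%, median -0.90).

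Into the comparison of Lira and NGT mice, the T1D libraries entered only through the shared gene filter, scaling and estimate of the spread. No tested member had an unadjusted p under 0.05 in edgeR (0.781% of all genes), and the lowest was 0.110 (*Fcna*). Without NGT mouse 1, *Fcna* alone had one (2.24% of all genes), and without NGT mouse 2 no member did (0.616%). The median log2 fold change was 0.17, against 0.04 over all genes. It was 0.72 without NGT mouse 1 and -0.0090 without NGT mouse 2. With all mice the 28 values ran from -0.29 (*Masp1*) to 1.55 (*Vsig4*). *Fcna*, *Itgb2* and *Vsig4* were over 2 times higher on average in Lira mice, against 4.66% of all genes.

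**Figure D2:**
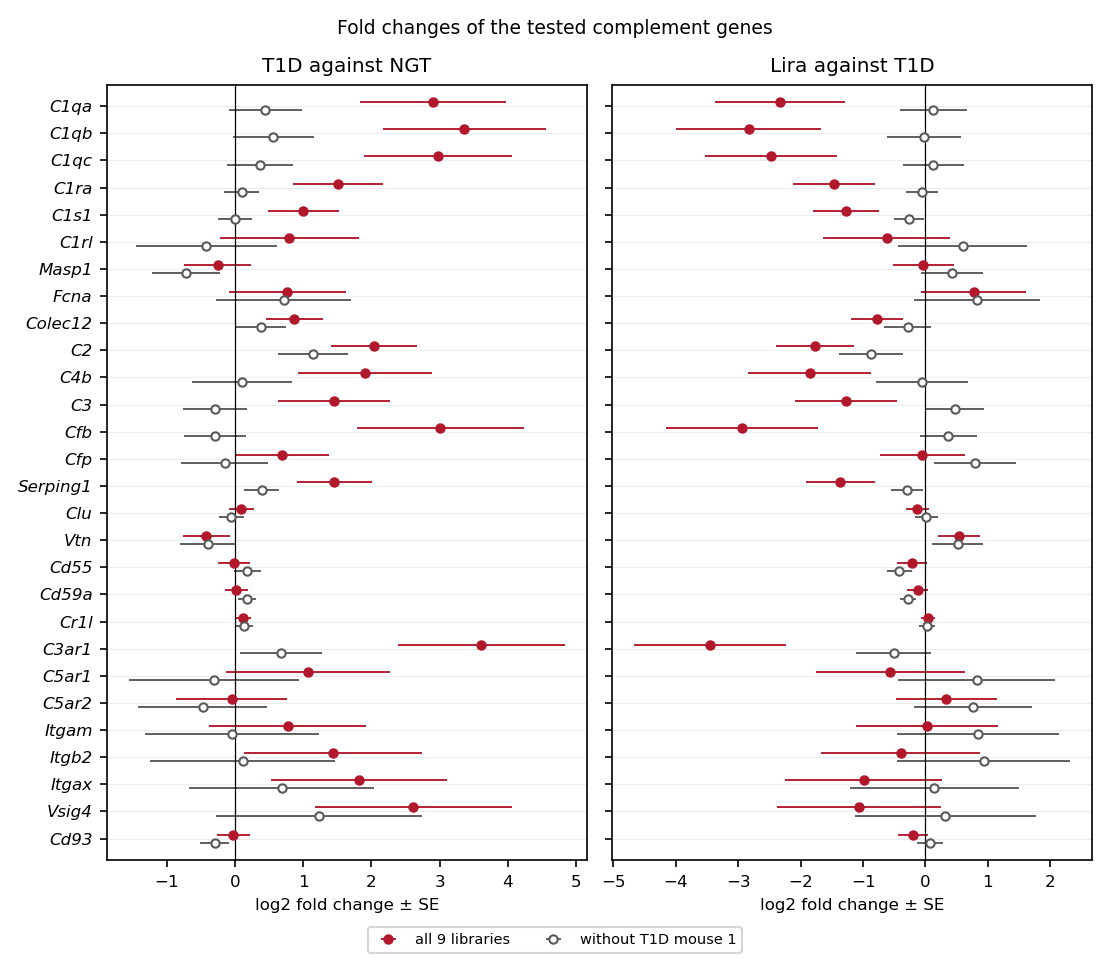
Log2 fold change ± SE of the 28 tested complement genes in T1D against NGT mice (left) and Lira against T1D mice (right), with all 9 libraries (filled) and without T1D mouse 1 (open). Leaving out that mouse moves the C1q chains, Cfb, C4b, C3 and C3ar1 toward 0 or past it in both panels (C3ar1 to 0.68 ± 0.60 and -0.51 ± 0.60), and leaves C2 at 1.15 ± 0.51 and -0.88 ± 0.51.

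The C1q molecule is built from 3 chains, encoded by *C1qa*, *C1qb* and *C1qc*, which follow one another with no other protein-coding gene between them in RefSeq. *C1qa* was at 21.4, 5.96 and 7.36 CPM in NGT mice 1, 2 and 3, at 229, 14.4 and 17.3 CPM in T1D mice and at 13.1, 16.2 and 22.4 CPM in Lira mice. *C1qb* was at 16.6, 3.17 and 6.1 CPM in NGT, 243, 12.05 and 13.5 CPM in T1D and 9.64, 14.4 and 13.6 CPM in Lira mice. *C1qc* was at 15.6, 4.1 and 7.6 CPM in NGT, 191, 10.7 and 12.9 CPM in T1D and 11.3, 12.6 and 14.8 CPM in Lira mice. T1D mouse 1 exceeded the next highest library by 10.2, 14.6 and 12.3 times for the 3 chains, T1D mice 2 and 3 lay within the range of the NGT mice, and the groups overlapped. The log2 fold changes in T1D against NGT mice were 2.90 ± 1.07 (SE) for *C1qa*, 3.36 ± 1.19 for *C1qb* and 2.97 ± 1.08 for *C1qc* (edgeR adjusted p = 0.977). In Lira against T1D mice they were -2.33 ± 1.04, -2.83 ± 1.16 and -2.48 ± 1.06. Without T1D mouse 1 the 3 chains differed by 0.45 ± 0.53, 0.56 ± 0.59 and 0.37 ± 0.48 between T1D and NGT mice, differences no larger than their errors. That fit keeps NGT mouse 1 without the T1D mouse of its number, and within numbers 2 and 3 the T1D mouse was higher, on the log2(CPM + 1) scale, by 1.15 and 1.13 for *C1qa*, 1.65 and 1.03 for *C1qb* and 1.20 and 0.69 for *C1qc*.

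The chains kept close proportions in every tibia. Per transcript length, *C1qb* was 0.542 (NGT mouse 2) to 1.08 times (T1D mouse 1) the level of *C1qa*, and *C1qc* was 0.677 (Lira mouse 3) to 1.06 times (NGT mouse 3). *C1qa* itself ranged from 5 FPKM (NGT mouse 2) to 268 FPKM (T1D mouse 1). Differences between groups in either ratio were within the spread of the mice (exact two-sided permutation test on log2 ratios, 3 mice against 3, lowest raw p = 0.2, adjusted p = 0.643 over 15 tests, where 0.1 is the smallest raw p the design allows). The summed C1q chains were 42.04 times the mean macrophage marker in FPKM in T1D mouse 1 and 5.597 to 13.9 times in the other 8 libraries. On the log2 scale this ratio was 1.16 higher in T1D than in NGT mice (exact p = 0.3) and 0.88 lower in Lira than in T1D mice (exact p = 0.1, the smallest possible), with adjusted p = 0.643 for both. Without T1D mouse 1 these differences were 0.60 (exact p = 0.4) and -0.32 (exact p = 0.1, the smallest that 3 mice against 2 allow).

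Promoters of 20 of the 31 members are in the RefSeq table used here (GRCm38.p6, 250 bases before to 50 bases after the transcript start, 22 promoters). Those of the C1q chains *C1qb* and *C1qc*, of *C1ra* and of *C3ar1* are shown because T1D mouse 1 exceeded every other library over 5 times for these tested genes. *C1qa* and *Cfb*, which also met this, had no entry. The untested *C6* met it too, and its promoter held none of the letters searched. Capitals mark matches to GAGGAA, the core that ETS factors such as PU.1 bind, or to TTCNNNGAA, the GAS-type element of STAT factors, on either strand. The ISRE-type motif GAAA, any 2 bases and GAAA again, was also searched on both strands, and no match of 1 motif overlapped one of another in the members' promoters.
C1qb: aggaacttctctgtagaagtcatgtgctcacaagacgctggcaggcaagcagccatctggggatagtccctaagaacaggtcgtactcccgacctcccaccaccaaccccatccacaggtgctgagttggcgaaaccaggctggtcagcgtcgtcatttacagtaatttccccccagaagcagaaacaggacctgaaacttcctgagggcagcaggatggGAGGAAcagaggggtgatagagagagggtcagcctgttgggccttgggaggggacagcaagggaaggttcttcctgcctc
C1qc: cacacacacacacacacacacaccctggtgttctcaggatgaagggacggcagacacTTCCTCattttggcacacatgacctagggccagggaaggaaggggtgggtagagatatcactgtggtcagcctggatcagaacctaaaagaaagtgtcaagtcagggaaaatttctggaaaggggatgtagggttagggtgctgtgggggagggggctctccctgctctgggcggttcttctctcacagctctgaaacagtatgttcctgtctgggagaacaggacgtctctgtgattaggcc
C1ra: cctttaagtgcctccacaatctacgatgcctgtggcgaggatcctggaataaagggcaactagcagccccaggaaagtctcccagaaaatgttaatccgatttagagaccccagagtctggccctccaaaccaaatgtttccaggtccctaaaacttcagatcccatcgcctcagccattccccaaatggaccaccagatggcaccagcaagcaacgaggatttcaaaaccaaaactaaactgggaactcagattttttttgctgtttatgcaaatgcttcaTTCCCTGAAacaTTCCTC
C3ar1: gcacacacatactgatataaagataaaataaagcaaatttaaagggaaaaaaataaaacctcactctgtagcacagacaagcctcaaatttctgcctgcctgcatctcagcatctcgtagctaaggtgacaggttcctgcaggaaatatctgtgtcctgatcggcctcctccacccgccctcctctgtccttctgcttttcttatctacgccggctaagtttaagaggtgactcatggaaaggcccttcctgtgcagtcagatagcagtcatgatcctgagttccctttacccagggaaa
The first lies at chr4:136886151-136886450 and the second at chr4:136892865-136893164, both on the minus strand, and the others at chr6:124512371-124512670 (plus strand) and chr6:122856108-122856407 (minus strand). The *C1qb* and *C1qc* windows each held GAGGAA once, that of *C1ra* held GAGGAA and TTCNNNGAA once each, and that of *C3ar1* held none of these letters. Of the 22 member promoters, 9 (40.9%) held GAGGAA, 3 (13.6%) TTCNNNGAA and 2 (9.09%) the ISRE-type letters, and of all 32851 promoters 28.3%, 8.3% and 3.44% did. *Vtn* and *Cd59a* held the ISRE-type letters. These are letter matches, and no binding was measured.

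*C1ra* and *C1s1* encode the proteases that C1q carries, and *C1rl* a related protease. *C1ra* was at 22.8, 14.7 and 16.5 CPM in NGT, 116, 17.5 and 21.01 CPM in T1D and 17.3, 22.7 and 15.9 CPM in Lira mice, so that all libraries but T1D mouse 1 lay within 1.55-fold of each other. *C1s1* was at 53.7, 39.2 and 37.3 CPM in NGT, 174, 44.1 and 42.7 CPM in T1D and 38.1, 43.5 and 26.7 CPM in Lira mice. Again a single library was high, and Lira mouse 3 was the lowest. *C1ra* differed by 1.51 ± 0.66 between T1D and NGT mice (edgeR adjusted p = 0.977) and *C1s1* by 1.00 ± 0.52. In Lira against T1D mice, *C1s1* differed by -1.27 ± 0.53 and *C1ra* by -1.47 ± 0.66. Without T1D mouse 1, T1D against NGT gave 0.10 ± 0.25 for *C1ra* and 0.00 ± 0.24 for *C1s1*, and Lira against T1D gave -0.05 ± 0.25 and -0.27 ± 0.24. The neighbouring *C1rl* was low, between 0.541 and 7.94 CPM, and was lowest in NGT mouse 2 and Lira mouse 2. The near-identical copies *C1rb* and *C1s2* were listed at no more than 0.272 CPM in any library, and reads shared with them leave the values of *C1ra* and *C1s1* uncertain.

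Of the lectin pathway, *Colec12*, a scavenger collectin of endothelial and stromal cells, was the most abundant member. It was at 25.5, 10.4 and 12.4 CPM in NGT, 46.2, 19.2 and 22.7 CPM in T1D and 18.5, 14.6 and 18.5 CPM in Lira mice. Every Lira mouse was below every T1D mouse, which held for 2 of the 28 members (*Colec12* and *C2*) and for 3.4% of all genes, while NGT mouse 1 lay above T1D mice 2 and 3. Its log2 fold change was 0.87 ± 0.42 in T1D against NGT mice and -0.77 ± 0.42 in Lira against T1D mice (edgeR adjusted p = 0.978). Within replicate numbers, each T1D mouse exceeded the NGT mouse of its number by nearly the same amount, 0.83, 0.83 and 0.82 on the log2(CPM + 1) scale for mice 1, 2 and 3. The protease gene *Masp1* ranged from 3.07 to 10.8 CPM with overlapping groups. *Fcna*, a ficolin of macrophages, ranged from 0.0773 CPM in NGT mouse 2 to 4.82 CPM in Lira mouse 3, and its lowest value lay under the limit that a count of 0 allows.

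Among the convertase components, *C3*, the central protein of the cascade, was the most abundant, and *C2*, the protease subunit of the classical C3 convertase, was the most separated between groups. *C3* was at 158, 67.5 and 56.8 CPM in NGT, 619, 53.8 and 99.9 CPM in T1D and 96.9, 126 and 97.3 CPM in Lira mice. T1D mouse 2 was the lowest of all 9 libraries and T1D mouse 1 the highest, so that the log2 fold change of 1.45 ± 0.82 in T1D against NGT mice turned to -0.29 ± 0.47 without T1D mouse 1. *C2* was at 1.78, 2.32 and 1.19 CPM in NGT, 13.9, 4.65 and 3.2 CPM in T1D and 2.5, 2.88 and 1.03 CPM in Lira mice. Every T1D mouse was above every NGT mouse and every Lira mouse, which held for *C2* alone of the 28 tested members and for 0.989% of all genes. It differed by 2.04 ± 0.63 in T1D against NGT mice and by -1.77 ± 0.63 in Lira against T1D mice (edgeR adjusted p = 0.978). Without T1D mouse 1 the values were 1.15 ± 0.51 and -0.88 ± 0.51. Its counts were low, at no more than 4.65 CPM outside T1D mouse 1.

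*Cfb*, the protease subunit of the alternative convertase, was at 10.9, 4.02 and 4.75 CPM in NGT, 149, 6.55 and 4.2 CPM in T1D and 6.92, 7.01 and 6.83 CPM in Lira mice. The 3 Lira mice lay within 0.179 CPM of each other, whereas T1D mouse 1 exceeded the next library 13.6-fold and T1D mice 2 and 3 were not above NGT mouse 1. Its log2 fold change of 3.01 ± 1.22 in T1D against NGT mice became -0.29 ± 0.46 without T1D mouse 1, and that of -2.94 ± 1.21 in Lira against T1D mice became 0.36 ± 0.46. *Cfb* and *C2* are neighbours in RefSeq with no other protein-coding gene between them, but in T1D mice 2 and 3 *C2* was above all NGT mice and *Cfb* was not. *C4b* ranged from 5.94 to 43.9 CPM outside T1D mouse 1 and was at 180.5 CPM in it. Its log2 fold changes of 1.91 ± 0.98 (T1D against NGT) and -1.86 ± 0.98 (Lira against T1D) were 0.11 ± 0.73 and -0.05 ± 0.73 without that mouse, and its near-identical copy *C4a* was listed at no more than 0.857 CPM. *Cfp*, which encodes properdin and is made by neutrophils and other myeloid cells, was nearly as high in Lira mouse 3 (24.3 CPM) as in T1D mouse 1 (26.6 CPM).

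Transcripts of the terminal pathway, whose proteins form the membrane pore, were few. *C6* had 4, 2 and 2 counts in NGT, 48, 7 and 4 counts in T1D and 6, 5 and 4 counts in Lira mice, which are 0.254, 0.155 and 0.158, 2.61, 0.458 and 0.267 and 0.428, 0.389 and 0.23 CPM. T1D mouse 1 alone was above 1 CPM. *C7* had 3 to 10 counts per library, with the fewest in T1D mouse 1. Of the terminal genes outside the 31, *Hc* (C5), *C8a* and *C9* were at no more than 0.4996 CPM in any library, and *C8g* was at 0.689 to 1.47 CPM (12 to 22 counts).

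Of the soluble regulators, *Serping1*, the C1 inhibitor that inactivates C1r and C1s, was the most abundant of the 31 members per length over the mean of the 9 libraries. It was at 93.7, 65.9 and 71.96 CPM in NGT, 434, 104 and 98.1 CPM in T1D and 78.9, 106 and 61.6 CPM in Lira mice. Every T1D mouse was above every NGT mouse, as for *C2* and *Cr1l* and for 3.52% of all genes, but the lowest T1D mouse and the highest NGT mouse were 98.1 and 93.7 CPM. Its log2 fold change was 1.46 ± 0.56 in T1D against NGT mice and -1.37 ± 0.55 in Lira against T1D mice (edgeR adjusted p = 0.978). Without T1D mouse 1 it was 0.39 ± 0.25 and -0.30 ± 0.25. *Clu*, a chaperone that blocks pore assembly, ranged from 66 to 99.8 CPM and its 3 group means were 78.5 ± 10.03, 83.8 ± 16.9 and 76.6 ± 6.8 CPM (SD, n = 3) in NGT, T1D and Lira mice.

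*Vtn*, vitronectin, which binds the forming pore, was the only tested member for which every T1D mouse was below every NGT mouse (5.08% of all genes). Its means were 17.3 ± 1.68 CPM in NGT and 12.9 ± 2.03 CPM in T1D mice (SD, n = 3), with a log2 fold change of -0.42 ± 0.34 (edgeR adjusted p = 0.977). In Lira mouse 2 it was at 30.7 CPM, the highest of the 9 libraries. *Cfi*, which encodes factor I, the protease that inactivates C3b, had 0 to 8 counts per library and was at 0 in NGT mouse 3, T1D mouse 3 and Lira mouse 2, which allows up to 0.237 CPM.

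The membrane regulators protect host cells from convertases and from the pore, and they were among the steadiest members, with 1.16-fold (*Cr1l*) to 1.79-fold (*Cd55*) between the lowest and the highest library. *Cd55*, the decay-accelerating factor, was at 82.6, 89.2 and 122 CPM in NGT, 68.01, 118 and 104 CPM in T1D and 90.7, 75.9 and 82.8 CPM in Lira mice. T1D mouse 1 was the lowest of the 9 libraries, and the log2 fold change was -0.02 ± 0.24 in T1D against NGT mice and -0.22 ± 0.24 in Lira against T1D mice. *Cd59a*, which blocks the last step of the pore, was also lowest in T1D mouse 1 (30.8 CPM against 35.5 to 46.02 CPM). The related gene *Cd59b* was at 1.58 to 3.71 CPM. *Cr1l*, which encodes Crry, the main rodent regulator of C3 convertases, had the narrowest range of the 31 members, between 28.6 and 33.2 CPM. It was slightly higher in every T1D and every Lira mouse than in every NGT mouse (3.52% and 2.49% of all genes), with log2 fold changes of 0.12 ± 0.12 and 0.16 ± 0.12 (edgeR adjusted p = 0.979 and 0.999).

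Of the anaphylatoxin receptors, *C3ar1*, the receptor of C3a, had the largest fold changes of the members in T1D against NGT and in Lira against T1D mice. It was at 3.36, 1.01 and 2.14 CPM in NGT, 73.3, 5.11 and 1.87 CPM in T1D and 2.14, 3.19 and 2.01 CPM in Lira mice. T1D mouse 1 was 14.4 times the next library, and T1D mouse 3 lay below NGT mice 1 and 3. The log2 fold changes were 3.61 ± 1.23 and -3.45 ± 1.22 (edgeR adjusted p = 0.978), and without T1D mouse 1 they were 0.68 ± 0.60 and -0.51 ± 0.60. *C5ar1* and *C5ar2* are neighbouring genes that encode the receptors of C5a. *C5ar1* ranged from 0.541 CPM in NGT mouse 2 to 20.7 CPM in T1D mouse 1, with Lira mouse 3 (13.1 CPM) and NGT mouse 1 (10.2 CPM) next. *C5ar2* was lowest in NGT mouse 2 too (0.309 CPM) and highest in Lira mouse 3 (3.04 CPM). The ratio of *C3ar1* to *C5ar1* in FPKM ran from 0.0878 (Lira mouse 3) to 2.13 (T1D mouse 2) with overlapping groups (exact permutation test, lowest raw p = 0.3, adjusted p = 0.643).

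*Itgam* and *Itgax* encode the alpha chains of complement receptors 3 and 4, and *Itgb2* the beta chain they share. *Itgam* ranged from 1.78 CPM in NGT mouse 2 to 83.6 CPM in Lira mouse 3, and *Itgb2* from 1.31 CPM in NGT mouse 2 to 87.6 CPM in T1D mouse 1. Within the NGT group alone they ranged from these lowest values to 50.3 and 36.05 CPM in mouse 1, and their log2 fold changes in T1D against NGT mice were 0.77 ± 1.15 and 1.44 ± 1.30. *Itgax* had 0 counts in NGT mouse 2, which allows up to 0.232 CPM, and reached 7.88 CPM in T1D mouse 1. *Vsig4*, the complement receptor of the immunoglobulin family on resident macrophages, had 0 to 64 counts per library, with 0 in NGT mouse 2 and Lira mouse 2. *Cd93*, a C-type lectin of endothelial and myeloid cells once described as a C1q receptor, was at 63.9, 44.2 and 42.2 CPM in NGT, 66, 42.95 and 38.7 CPM in T1D and 39.9, 41.6 and 47.3 CPM in Lira mice. It was high in NGT mouse 1 and T1D mouse 1 alike, and differed by -0.03 ± 0.24 between these groups.

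NGT and T1D mice of the same replicate number deviated together from their groups, so the members were also compared within numbers. The paper describes no pairing of mice. The numbers were taken as pairs from these same data, which limits what the paired counts can show. On the log2(CPM + 1) scale 17 of the 28 members were higher in the T1D mouse of all 3 numbers (19.2% of all genes), among them the 3 C1q chains, *C2*, *C4b*, *Serping1*, *Colec12*, *Itgb2* and *Itgax*, and 1 member, *Vtn*, was lower in all 3 (19%). *C1qa* differed by 3.36, 1.15 and 1.13 for numbers 1, 2 and 3, *C4b* by 2.01, 1.15 and 1.63 and *Itgb2* by 1.26, 2.21 and 1.60. *C3ar1* (4.09, 1.61 and -0.13) and *Cfb* (3.65, 0.59 and -0.14) were not higher within number 3. In edgeR with the number as a block, 9 members had an unadjusted p under 0.05 in the fit of all 3 groups (5.39% of all genes). *C1ra* and *Cfb* were no longer among them, and *Colec12*, *C4b* and *Vsig4* were. With the block and only NGT and T1D mice in the fit, 15 did (14% of all genes), 14 higher and *Vtn* lower, with 0.232 as the lowest adjusted p.

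**Figure D3:**
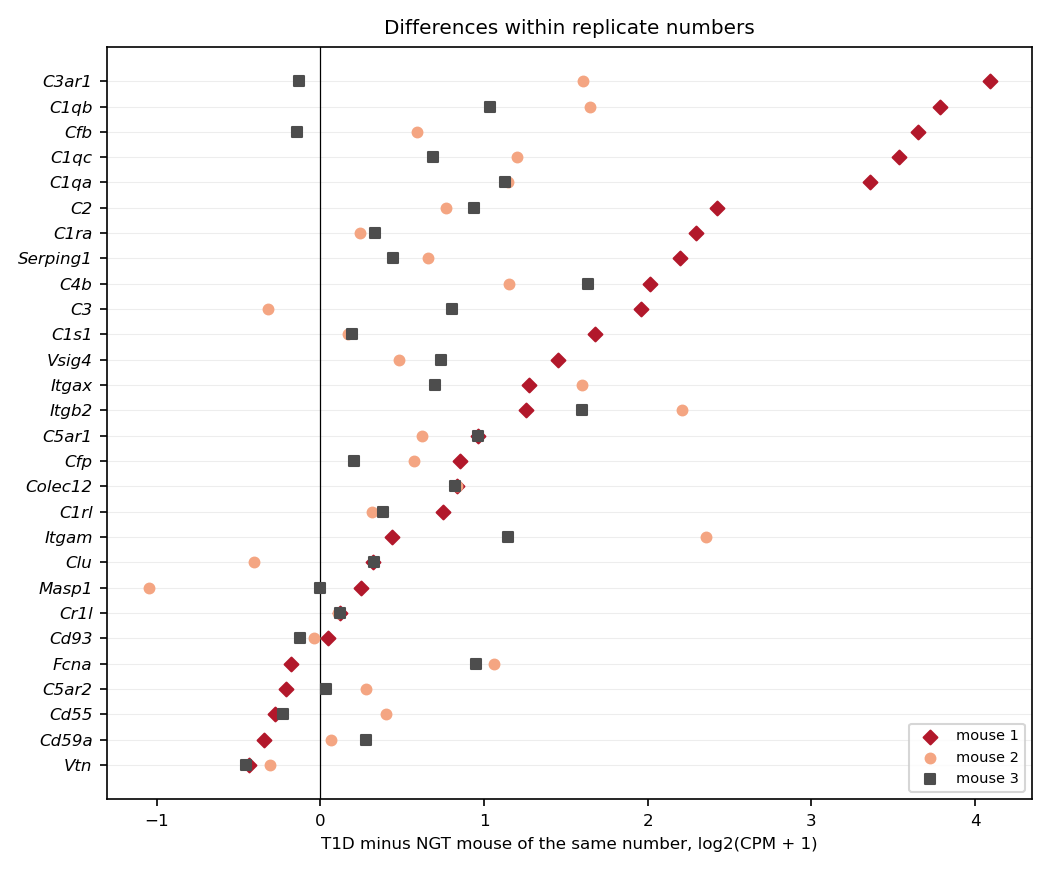
Difference between the T1D and the NGT mouse of the same replicate number, as log2(CPM + 1), for the 28 tested complement genes, ordered by the difference of number 1. Number 1 exceeds the others for C3ar1, Cfb and the C1q chains, whereas Colec12 and Cr1l differ by similar amounts in all 3 numbers and Itgam and Itgb2 differ most in number 2.

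Some lists of cell type markers were also highest in T1D mouse 1, and others were not. In T1D mouse 1 the 12 macrophage markers summed to 415 CPM, against 85.1 to 147 CPM in the other 8 libraries, with *Marco* at 0 in 5 libraries and *Spic* in 1. The 10 fibroblast and stromal markers summed to 3593 CPM against 727 to 1430.5 CPM, with none at 0, and the 12 interferon-gamma response genes to 746 CPM against 51.5 to 112 CPM, with *Ifng* at 0 in 5 libraries and *Cxcl10* in 1. The 8 osteoclast markers summed to 353 CPM against 7.97 to 267 CPM. Of the macrophage markers 9 of the 11 tested were higher on average in T1D than in NGT mice (52.1% of all genes), 4 with an unadjusted p under 0.05 (*Adgre1*, *Cd14*, *Cd68* and *Siglec1*, against 3.95% of all genes and 2.36% in the higher direction), and of the interferon-gamma response genes all 10 tested, 4 with an unadjusted p under 0.05 (*Cxcl9*, *Gbp2*, *Gbp3* and *Gbp5*). *Cxcl9*, a chemokine induced by interferon-gamma, was at 194, 1.37 and 1.93 CPM in the T1D mice. Of the 7 osteoclast markers tested, 6 were over 2 times higher on average (5.27% of all genes) and higher within all 3 numbers (19.2%), and *Ctsk*, the cathepsin that degrades bone collagen, had an unadjusted p under 0.05 and was higher in every T1D than in every NGT mouse. The median log2 fold change was 0.92 over the macrophage markers, 1.77 over the interferon-gamma response genes and 1.85 over the osteoclast markers. Without T1D mouse 1, a setting added after seeing the data, these medians were 0.41, -0.12 and 1.46. In that edgeR fit 1 macrophage marker, not among the 4 above, had an unadjusted p under 0.05. So did 0 interferon-gamma response genes and 0 osteoclast markers (2.99% of all genes). These 9 named genes were chosen after their values were seen. The 6 hepatocyte markers summed to 5.06 CPM in T1D mouse 1 and to 0.267 to 39.9 CPM elsewhere. The 10 neutrophil markers summed to 1381 CPM in T1D mouse 1, within the range of the others (8.43 to 5494 CPM), and their median log2 fold change in T1D against NGT mice was -0.0034, with 5 of 10 higher on average. The 6 endothelial markers summed to 264 CPM in T1D mouse 1, the lowest of the 9 libraries (265 to 466 CPM elsewhere), with a median of -0.17 and 1 of 6 higher on average. None of these 16 had an unadjusted p under 0.05. The part of these cells in the group differences was not tested.

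Each member was also set against the mean level of 4 lists over the 9 mice, 28 relations for each list, and whether a member followed one list more closely than another was not tested. *C1qa* correlated with the mean of the macrophage markers (log2(CPM + 1)) at Pearson's r 0.98 and Spearman's rho 0.95 (adjusted p = 0.00206 and 0.00658), from exact permutation tests adjusted over 112 relations. Without NGT mouse 2 and T1D mouse 1, the mice farthest from the median of the marker mean, r was 0.93. *C1qa* correlated also with the interferon-gamma response genes, a relation added after seeing the data, at Pearson's r 0.96 and Spearman's rho 0.93 (adjusted p = 0.00478 and 0.00933) in the exact test, and r was 0.73 without T1D mouse 1 and Lira mouse 3. With the fibroblast and stromal markers the values were Pearson's r 0.92 and Spearman's rho 0.67 (adjusted p = 0.0129 and 0.135) by exact permutation, so that the rank relation missed the threshold, and r was 0.58 without NGT mouse 1 and T1D mouse 1. *C1qc* followed the macrophage markers at Pearson's r 0.96 and Spearman's rho 0.97 (adjusted p = 0.00201 and 0.00617), with r = 0.95 without NGT mouse 2 and T1D mouse 1. *C1qb* followed them at Pearson's r 0.96 and Spearman's rho 0.83 (adjusted p = 0.00855 and 0.0386) in the exact test. It followed the fibroblast and stromal markers at Pearson's r 0.94 and Spearman's rho 0.85 (adjusted p = 0.00955 and 0.0309) in the same test. *C1ra* followed the fibroblast and stromal markers at Pearson's r 0.93 and Spearman's rho 0.93 (adjusted p = 0.00955 and 0.00933), again by exact permutation, with r = 0.63 without NGT mouse 1 and T1D mouse 1. *Serping1* followed them at Pearson's r 0.91 and Spearman's rho 0.82 (adjusted p = 0.0244 and 0.0447), by the same exact test, with r = 0.62 without the same mice. *C1s1* followed them at Pearson's r 0.90 and Spearman's rho 0.83 (adjusted p = 0.0244 and 0.0386) in the exact test, but r was 0.17 without those 2 mice, on which the linear relation rested.

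*C5ar2* followed the neutrophil markers, a relation added after seeing the data, at Pearson's r 0.97 and Spearman's rho 0.98 (adjusted p = 0.00201 and 0.00278) by exact permutation, and at r = 0.95 without NGT mouse 2 and T1D mouse 2. *Itgam* did so at Pearson's r 0.93 and Spearman's rho 0.90 (adjusted p = 0.00512 and 0.0189), with r = 0.91 without the same mice, and followed the macrophage markers at Pearson's r 0.77 and Spearman's rho 0.93 (adjusted p = 0.0369 and 0.00933) in the exact test, with r = 0.71 without NGT mouse 2 and T1D mouse 1. Of the 28 members, *Cr1l* and *C2* had the rank correlations with the macrophage markers nearest to 0, at Pearson's r 0.22 and Spearman's rho 0.02 (adjusted p = 0.635 and 0.982) for *Cr1l* and Pearson's r 0.67 and Spearman's rho 0.13 (adjusted p = 0.124 and 0.809) for *C2* in the exact test. For *C3ar1* the values were Pearson's r 0.84 and Spearman's rho 0.38 (adjusted p = 0.0522 and 0.432) in the exact test, neither past the threshold, and r was -0.17 without NGT mouse 2 and T1D mouse 1. All points share the library they come from, and the mean levels of the lists vary together over these mice.

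**Figure D4:**
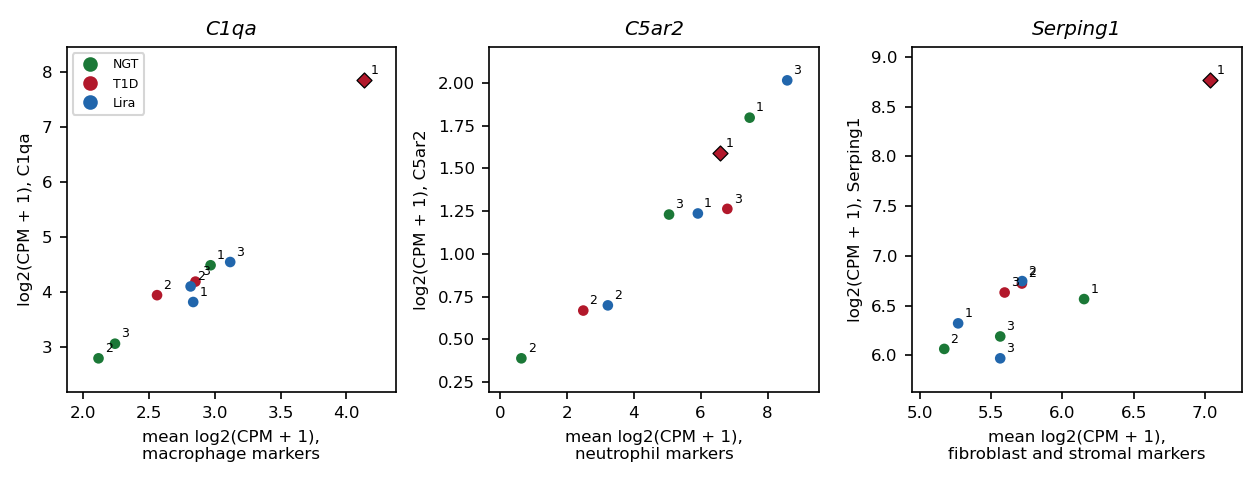
Level of C1qa, C5ar2 and Serping1 against the mean level of macrophage, neutrophil, and fibroblast and stromal markers in the 9 libraries, as log2(CPM + 1), with mouse numbers beside the points and T1D mouse 1 as a diamond. C1qa and C5ar2 follow their lists over the whole range, whereas for Serping1 the 8 other libraries lie close together and T1D mouse 1 stands alone.

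Of 31 other complement genes, 29 were in the table and 12 had enough counts to be tested. One of the 12, *Colec11*, a collectin of the lectin pathway, had an unadjusted p under 0.05 in T1D against NGT mice (3.95% of all genes), and *Colec11* and *Csmd1* did in Lira against T1D mice (3.33%), with no adjusted p under 0.05. *Colec11* was at 0.508, 0.232 and 0.237 CPM in NGT, 1.25, 0.982 and 1.33 CPM in T1D and 0.5, 0.467 and 0.574 CPM in Lira mice, and every T1D mouse was above every mouse of the other groups (0.989% of all genes). Its counts were low, at 8, 3 and 3 in NGT, 23, 15 and 20 in T1D and 7, 6 and 10 in Lira mice. NGT mice 2 and 3 thus lay at the floor of 3 counts. *Cd46* and *Cd59b*, which encode membrane regulators, were lower in every T1D mouse than in every NGT mouse (5.08%), at 7.5, 7.86 and 7.14 against 8.95, 8.04 and 9.1 CPM for *Cd46* and 1.58, 2.55 and 2.93 against 3.24, 3.71 and 3.25 CPM for *Cd59b*, with log2 differences of -0.21 ± 0.21 and -0.53 ± 0.32 (edgeR adjusted p = 0.979 and 0.977). *Colec11*, *Csmd1*, *Cd46* and *Cd59b* were chosen after their values were seen. Of the 3 most abundant of these genes, *Cfd*, which encodes the alternative pathway protease adipsin and is made by adipocytes, was at 467, 159 and 28.02 CPM in NGT, 834, 84.3 and 197 CPM in T1D and 198, 60.2 and 132 CPM in Lira mice. Its 2 highest libraries, T1D mouse 1 and NGT mouse 1, were also the 2 with the highest sums of the 5 adipocyte markers other than *Cfd* (1000.5 and 695 CPM), and the groups overlapped. *Lrp1*, a scavenger receptor proposed to bind C1q with calreticulin, was at 142, 83.3 and 62.8 CPM in NGT, 293, 91.9 and 91.5 CPM in T1D and 117, 119 and 84.2 CPM in Lira mice, again with T1D mouse 1 alone above the rest. *C1qbp*, a mostly mitochondrial protein that binds the globular heads of C1q, was at 70.6, 96.1 and 95.8 CPM in NGT, 71.9, 71.96 and 98.3 CPM in T1D and 93.9, 105 and 76.6 CPM in Lira mice, without such a difference. The liver-made components *Mbl1*, *Mbl2* and *C4bp* were at no more than 0.143 CPM in any library.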

How the data were processed

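Total RNA was extracted from whole tibia of 9 mice, and mRNA enriched from it with oligo(dT) beads was sequenced, 1 library per mouse. The authors aligned clean reads to the mouse genome (mm9 in the submitters' processing notes) and deposited estimated counts and FPKM per gene for 18272 genes (aligner, counter and strand setting are not given in the sources used here). The deposited expression columns name no unit and were read as FPKM because their ratio to the counts was fixed per gene up to a constant per library. Of the deposited counts 30.2% were not whole and were rounded.

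The 13960 genes that reached 10 counts in 3 or more libraries were fitted with edgeR 4.0.16 (R 4.3.3; TMM, quasi-likelihood, 3 group means over 9 libraries) with Benjamini-Hochberg adjustment, at the study's thresholds of adjusted p under 0.05 and fold change over 2. CPM are counts scaled by the TMM-adjusted library total, and SE are on the log2 scale. Correlations and ratios were tested by exact permutation (scipy 1.17.1). On simulated counts for T1D against NGT over 13960 genes, the fit recovered 131 of 200 genes changed 4-fold and 191 of 200 changed 16-fold, with 7 false calls each. Each gene was drawn on its own, with no library standing apart, and the changed genes came from those above a minimum mean level. These rates therefore need not hold for the real libraries or for genes of low level. Alternatives were DESeq2 1.42.0, limma 3.58.1 on log2 values, other scaling and filters, a replicate block, and leaving out each mouse. Genes outside the 31 were named as the most abundant of a list or after their values were seen. All 31 genes were named, with values in every mouse for the C1q chains, the most abundant of each role, those with an unadjusted p under 0.05 and those whose groups did not overlap in T1D against NGT and Lira against T1D both. The members and lists were chosen with earlier results of these data known. The floor of 3 counts covers counting error only, and SE and p-values measure the spread between these mice.

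Groups share replicate numbers. Deviations from the group means over genes correlated between same-numbered NGT and T1D mice at 0.61, 0.63 and 0.29, all over 0.1, so these numbers were taken as pairs from the data. Between Lira and T1D mice they were -0.29, 0.60 and 0.23, and between Lira and NGT mice -0.33, 0.69 and -0.17, so these were not. NGT and T1D mice of different numbers correlated at -0.71 (T1D mouse 2 with NGT mouse 1) to 0.26 (T1D mouse 2 with NGT mouse 3). The paper describes no pairing of mice. Promoter sequences are from RefSeq (GRCm38.p6) and were matched by gene.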

Additional observations from a re-analysis of the deposited data

How the results depend on the processing

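No complement gene passed the study's thresholds under any of the 63 alternatives over the 3 comparisons. The number with an unadjusted p under 0.05, of 8 in T1D against NGT, 7 in Lira against T1D and 0 in Lira against NGT mice, depended on the setting, and the cause was not tested except where libraries were left out. In T1D against NGT mice it was 4 with DESeq2 (p not given for 5 members) and 1 with limma on log2(CPM + 1), on log2(FPKM + 1) and on log2(FPKM + 0.1). In Lira against T1D mice it was 1 in each of these limma fits and 2 with only these groups in the fit. In Lira against NGT mice it was 1 with limma on log2(CPM + 1). Leaving out 1 mouse at a time gave 0 to 12, 0 to 10 and 0 to 1 members in the 3 comparisons. Without NGT mouse 2 and Lira mouse 2, which had the fewest bone cell transcripts, it was 1 in each of the first and second comparisons, and without these and T1D mouse 1 it was 0 in both (both settings were chosen after seeing the data).

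With the replicate block, the count in T1D against NGT mice was 9 over all libraries and 15 with only these groups in the fit. In Lira against T1D mice the block gave 3 and 1, and in Lira against NGT mice 1 and 0. These numbers do not pair the Lira mice, and no adjusted p passed with the block.

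Of the log2 fold changes that turned direction, *Cd55* was 0.050 and *Cd93* 0.059 with the library size in place of TMM in T1D against NGT mice, 0.034 and 0.037 with limma on log2(FPKM + 1) and 0.035 and 0.040 on log2(FPKM + 0.1). In Lira against NGT mice *C1ra* was -0.022 and *Cfb* -0.036 with the library size. Without NGT mouse 2, Lira mouse 2 and T1D mouse 1, T1D against NGT gave -0.027 for *C1ra*, -0.067 for *C1s1*, -0.49 for *C3*, -0.55 for *Cfb* and 0.12 for *Cd55*, and Lira against T1D gave 0.17 for *C1qa*, 0.14 for *C1qc*, 0.34 for *C3*, 0.35 for *Cfb* and 0.095 for *Cd93*. In Lira against NGT mice, leaving out NGT mouse 2 and Lira mouse 2 gave -0.24 for *C1ra*, -0.037 for *Colec12*, -0.15 for *C3*, -0.19 for *Cfb*, -0.24 for *Serping1* and -0.41 for *C3ar1*, with and without T1D mouse 1.

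Leaving out 1 mouse at a time turned these directions. In T1D against NGT mice the range was -0.29 to 2.05 for *C3*, -0.29 to 3.60 for *Cfb*, -0.19 to 0.18 for *Cd55* and -0.30 to 0.19 for *Cd93*. In Lira against T1D mice it was -2.85 to 0.12 for *C1qa*, -3.00 to 0.13 for *C1qc*, -1.77 to 0.47 for *C3*, -3.49 to 0.36 for *Cfb* and -0.34 to 0.073 for *Cd93*. In Lira against NGT mice it was -0.12 to 0.26 for *C1ra*, -0.14 to 0.59 for *Colec12*, -0.0040 to 0.61 for *C2*, -0.084 to 0.78 for *C3*, -0.18 to 0.66 for *Cfb*, -0.14 to 0.26 for *Serping1* and -0.18 to 0.63 for *C3ar1*. For the log2 ratios it was -0.16 to 0.13, -0.11 to 0.086 and -0.18 to 0.11 for *C1qc* to *C1qa* in the 3 comparisons, and in Lira against NGT mice -0.13 to 0.21 for *C1qb* to *C1qa*, -0.019 to 0.50 for *Itgax* to *Itgam*, -1.52 to 0.32 for *C3ar1* to *C5ar1* and -0.030 to 0.62 for C1q to the macrophage markers. The relation of *Cd93* to the fibroblast and stromal markers was -0.030 without the 2 farthest mice. Genes under about 0.2 CPM, near the floor of 3 counts, could not be compared at this depth.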

Other observations

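The libraries also differed in the marker lists of other cell types. The 6 adipocyte markers, *Cfd* among them, summed to 1835 CPM in T1D mouse 1 and 217 to 1161 CPM in the other 8 libraries. The 9 osteoblast and osteocyte markers summed to 485 CPM in T1D mouse 1 against 21.04 to 158 CPM. The 6 endothelial markers showed the narrowest range of the cell type lists, at 264 CPM in T1D mouse 1 and 265 to 466 CPM elsewhere. The 6 B cell markers were highest in Lira mouse 3 (174 CPM) and lowest in NGT mouse 2 (0.541 CPM), and the 10 neutrophil markers ordered the same 2 libraries at 5494 and 8.43 CPM.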
